A study of Mus musculus with 47 samples.

Results

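Gene expression in lung was compared with that in whole blood cells of mice that had breathed air only. All 16 air arrays of these tissues were used, 8 of lung and 8 of blood, chosen by the tissue and exposure in their labels out of 47 arrays in the series. Male C57BL/6J mice, 6 weeks of age, inhaled air for 3 hr/d on 10 d as the controls of a study of GMA-SS, the fume of gas metal arc welding on stainless steel, and each tissue has 4 arrays of mice sacrificed 4 hr and 4 of mice sacrificed 28 d after the last exposure. Lung RNA came from homogenates of the whole organ, and no source used here says whether the vessels were flushed. Blood RNA came from whole blood, with red cells and platelets, and globin RNA was removed from blood alone. The lung and blood arrays carry different numbers in their labels, read here as mouse numbers, by which the tissues came from different animals. The paper, however, counts only 4 air mice sacrificed at 4 hr, too few for separate lung and blood animals at that time. Whether tissues shared animals is therefore not settled. Each beadchip held 1 tissue at 1 time, and tissue and beadchip cannot be told apart. For this reason a gene had to differ by more than 2-fold, tested against that size, before it was called, and detection within each array was read beside it.

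The gas exchange surface of the lung is a thin sheet of flat alveolar type I cells, kept open by the surfactant that type II cells secrete, laid on a dense capillary bed and held by matrix that fibroblasts make. Conducting airways are lined by ciliated cells and by club cells, which secrete protective proteins and metabolize inhaled chemicals, and alveolar macrophages patrol the surface. Blood carries red cells, of which the youngest still hold RNA for heme, membrane and protein turnover, platelets with RNA from their parent megakaryocytes, and leukocytes, in the mouse mostly B cells, T cells, neutrophils and monocytes. A lung holds some of each of these blood cells in its vessels and tissue.

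On a beadchip the brightness of a probe is its average signal, and its detection p-value says how often a negative control bead was as bright. Signals given here are log2 values after background removal and quantile normalization of the 16 arrays together, and differences are lung minus blood, in log2 units with the standard error (SE) of the fit. A gene was above background on an array at a detection p under 0.05. In lung 10291 to 10431 entries of an array were above background, against 8130 to 8406 in blood, and no array of one tissue fell within the range of the other (exact permutation test, 2-sided, p = 0.000155, the smallest that 8 arrays against 8 allow). The 75th percentile of signal stood 6.67 to 7.96 times above background in lung and 2.68 to 3.32 times in blood, so that dim genes had less room to be seen in blood. Arrays of 1 tissue and time correlated at 0.989 to 0.9974 and those of 1 tissue at different times at 0.98 to 0.9918, while arrays of different tissues correlated at 0.612 to 0.6301.

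The tissue labels were checked against defining markers. Of 8 type II cell markers on the array, 8 were above background on all 8 lung arrays and 2 on all 8 blood arrays (of all genes tested, 83.3% and 62.1%), and of 5 fibroblast markers 5 were so in lung and 0 in blood. Of the 4 red cell markers 3 were above background on every lung array and 4 on every blood array, and of the 5 platelet markers 4 were so in lung and 5 in blood. Of the 5 T cell markers 4 were above background on every lung array and 4 on every blood array. Of 5 neutrophil markers 3 were so in lung and 4 in blood, and of 4 B cell markers 2 in lung and 3 in blood. The blood arrays therefore held red cell and platelet RNA as well as leukocyte RNA. As in any bulk sample, fewer cells of a type and less RNA per cell cannot be told apart.

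Of 11112 genes that were above background on at least 3 arrays of either tissue, 2123 (19.1%) were called higher in lung and 1995 (18%) higher in blood with limma (treat against a 2-fold difference, Benjamini-Hochberg adjusted p under 0.05). By detection alone, 1408 genes (12.7%) were lung-only, which means above background on 8 of 8 lung arrays and 0 of 8 blood arrays, and 121 (1.09%) were blood-only. Of these, 1002 lung-only genes were also called higher in lung and 120 blood-only genes higher in blood. Since dim genes had less room to be seen in blood, the counts of these classes cannot be set against each other. A further 6480 genes were above background on all 16 arrays. Of these 3959, which is 35.6% of genes tested, lay within 2-fold of each other, 649 were called higher in lung, 1436 were called higher in blood, and 436 lay beyond 2-fold without a call. The other 3103 genes were above background on some of the arrays of a tissue. The median size of the difference between tissues was 0.87, against 0.14 between the times in lung and 0.17 between the times in blood. Differences over 16-fold numbered 518 on the lung side and 245 on the blood side. In 4109 of the 4118 called genes the arrays of the tissues did not overlap, against 7353 (66.2%) of all genes tested.

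**Figure D1:**
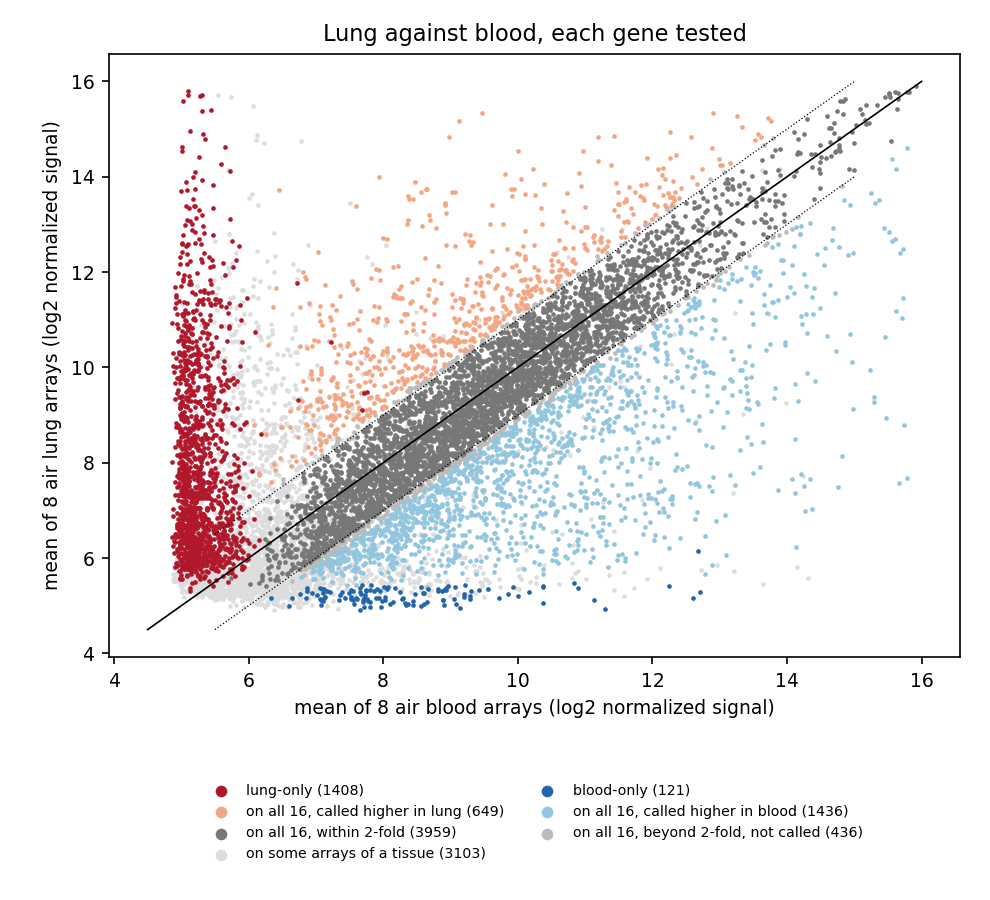
Mean log2 normalized signal of each of the 11112 genes tested in lung (vertical axis, 8 air arrays) and in blood (horizontal axis, 8 air arrays), colored by class; the solid line marks equal signal and the dotted lines a 2-fold difference. The 1408 lung-only genes fill a column at the background of blood that reaches up to the brightest lung signals, while the 121 blood-only genes form a short row at the background of lung.

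How the tissues were put on a common scale changed the counts. Scaled to the 75th percentile the median gene moved by -0.29 and 1765 genes were called higher in lung and 2761 in blood, which is 39% on the lung side against 51.6% after quantile normalization. Quantile normalization within each tissue moved it by 0.16, with 2377 and 1758 calls (57.5% on the lung side). Scaled to housekeeping and ribosomal protein genes it moved by 1.28, with 5329 calls in lung and 719 in blood (88.1%). Without background correction the calls were 1626 and 1343 (54.8%). There were 1734 genes called higher in lung and 719 called higher in blood under all 4 scalings, and genes below whose call was lost under at least 1 of them are named as such.

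Genes of the alveolar epithelium were higher in lung almost throughout. Of 20 type II genes on the array 17 were tested, 15 were called higher in lung and 0 in blood, with a median difference of 6.12, against -0.11 for all genes tested. *Sftpc*, the surfactant protein found in type II cells alone, lay at 15.15 to 15.57 (median 15.42) in lung and at 4.95 to 5.71 (median 5.26) in blood. It was above background on every lung array and on no blood array, and the difference was 10.07 ± 0.10 (limma, adjusted p = 3.26e-23). Because blood gave only a background reading, this is a bound, at least 500-fold higher in lung, taken against the lowest signal above background on each blood array. *Sftpd* and *Sftpa1*, surfactant proteins that bind microbes, were at least 625-fold and 279-fold higher in lung, and *Sftpb*, which spreads the surfactant film, at least 332-fold. *Slc34a2*, the phosphate transporter of type II cells, was at least 157-fold higher. All of these were above background on none of the 8 air aorta arrays.

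The list also held genes that were not confined to lung. *Abca3*, which loads lipid into lamellar bodies, lay at 11.65 to 11.90 (median 11.77) in lung and 8.67 to 9.20 (median 8.78) in blood, with no overlap and a difference of 2.92 ± 0.05. *Napsa*, a protease that trims surfactant proteins, lay at 13.12 to 13.66 (median 13.38) in lung and 11.94 to 12.49 (median 12.31) in blood, and its difference of 1.11 ± 0.07 was not beyond 2-fold (limma, adjusted p = 0.145). *Lyz1*, a lysozyme, was near the brightest signal of both tissues (15.67 to 15.80 (median 15.77) in lung, 15.38 to 15.66 (median 15.55) in blood), where a bead reading has little room to differ.

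The promoters of *Sftpb* and *Sftpa1* are shown because both genes were lung-only and carry the letters CTCAAG, the core that the lung transcription factor NKX2-1 can bind. These and the promoters below come from RefSeq on GRCm38.p6, run from 250 bases before to 50 after the gene start on the strand of the gene, and were picked for holding the motif, on either strand, which is printed in capitals. *Sftpb* lies at chr6:72304360-72304659 on the plus strand, with matches that begin 100 and 15 bases before the start, and *Sftpa1* at chr14:41131538-41131837 on the plus strand, with 1 match 166 bases before it.
Sftpb: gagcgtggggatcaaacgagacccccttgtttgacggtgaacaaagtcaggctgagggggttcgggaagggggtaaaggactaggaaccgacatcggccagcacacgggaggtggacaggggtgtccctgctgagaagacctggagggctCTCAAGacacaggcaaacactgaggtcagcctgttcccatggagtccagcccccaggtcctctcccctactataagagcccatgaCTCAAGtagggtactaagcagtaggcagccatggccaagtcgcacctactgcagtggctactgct
Sftpa1: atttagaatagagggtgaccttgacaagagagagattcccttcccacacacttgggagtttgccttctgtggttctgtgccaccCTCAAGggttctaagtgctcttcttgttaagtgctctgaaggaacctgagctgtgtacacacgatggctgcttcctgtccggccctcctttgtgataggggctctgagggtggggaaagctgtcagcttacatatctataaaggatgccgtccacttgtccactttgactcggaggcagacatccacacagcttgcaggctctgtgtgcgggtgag

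The same held for type I cells. Of 16 genes on the array 14 were tested and all 14 were called higher in lung, with a median difference of 7.73, and 12 were lung-only. *Cav1*, which shapes the caveolae of type I and endothelial cells, lay at 15.21 to 15.63 (median 15.39) in lung and 4.92 to 6.25 (median 5.35) in blood and was at least 511-fold higher in lung. *Pdpn* and *Aqp5*, the mucin and the water channel that mark type I cells, were at least 184-fold and 121-fold higher, and *Cldn18*, a tight junction protein, at least 125-fold. *Ager*, the receptor for glycated proteins that type I cells carry in large amounts, lay at 14.67 to 14.89 (median 14.77) in lung and 5.82 to 6.39 (median 6.14) in blood, where 5 of 8 arrays read it above background. *Spock2*, a matrix proteoglycan that was also lung-only, was at least 4.91-fold higher.

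Airway genes followed. Of 19 secretory and club cell genes on the array 16 were tested and 15 were called higher in lung (median 7.01). *Scgb1a1*, the main secretory protein of club cells, lay at 15.74 to 15.84 (median 15.79) in lung and 5.01 to 5.27 (median 5.09) in blood, at least 667-fold higher in lung. *Cyp2f2*, the club cell enzyme that activates inhaled naphthalene, was at least 636-fold higher, *Scgb3a2*, a second secretoglobin, at least 296-fold, and *Bpifa1*, an antimicrobial protein of upper airways, at least 119-fold. Since *Scgb1a1* and *Cyp2f2* were near the brightest reading of an array, their bounds have no order. *Reg3g*, an antimicrobial lectin, was at least 17.6-fold higher. The exception was *Aldh1a1*, which oxidizes retinal, at 13.83 to 14.33 (median 14.21) in lung and 13.66 to 14.04 (median 13.87) in blood, where the tissues overlapped.

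Of 18 ciliated cell genes, all tested, 13 were called higher in lung and 0 in blood, with a median of 3.57. *Dynlrb2*, a light chain of the dynein motor, was at least 53.8-fold higher in lung, *Sec14l3* at least 82.1-fold and *Tekt1*, a filament protein of the ciliary axoneme, at least 7.17-fold. The other 5 were not called. Of these *Foxj1*, the factor that switches on cilium genes, read dimly in both tissues, at 6.18 to 6.37 (median 6.31) in lung and 6.68 to 7.5 (median 7.16) in blood, and the remaining 4 differed by 0.64 to 0.85.

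Blood vessel genes were next. Of 34 endothelial genes on the array 31 were tested and 28 were called higher in lung (median 5.24), and 26 of the 31 tested were above background on all 8 aorta arrays. *Cldn5*, the endothelial tight junction protein, lay at 13.67 to 14.41 (median 14.05) in lung and 4.94 to 5.64 (median 5.09) in blood, at least 207-fold higher in lung. *Ptprb*, a phosphatase of endothelial junctions, was at least 139-fold higher and *Cdh5*, their cadherin, at least 21.2-fold. *Car4*, a carbonic anhydrase on the surface of lung capillaries, was at least 77.4-fold higher. The 3 that were not called included 2 that endothelium shares with platelets or leukocytes. *Vwf*, which tethers platelets and is stored in endothelium and platelets, lay at 12.39 to 13.15 (median 12.93) in lung and 13.68 to 14.47 (median 14.08) in blood (difference -1.17 ± 0.08, adjusted p = 0.0612 with limma), and *Pecam1*, an adhesion molecule of endothelium, platelets and leukocytes, at 11.46 to 11.996 (median 11.67) in lung and 10.51 to 11.25 (median 11.05) in blood. Neither was called.

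Connective tissue genes were mostly at background in blood. Of 34 fibroblast and matrix genes on the array 32 were tested and 30 were called higher in lung (median 5.22), 24 tested members were lung-only, and 30 of the 32 tested were above background on all aorta arrays. *Mgp*, which keeps matrix from calcifying, was at least 635-fold higher in lung. *Dcn*, a collagen-binding proteoglycan, was at least 122-fold higher, and *Col1a1*, the main chain of type I collagen, lay at 9.86 to 10.55 (median 10.13) in lung and 4.89 to 5.10 (median 4.97) in blood, at least 13.3-fold higher. *Tcf21*, a transcription factor of lung fibroblasts, was at least 24-fold higher in lung and above background on 0 aorta arrays. Of 21 smooth muscle and pericyte genes 17 were tested and 13 were called higher in lung (median 3.58). Among these *Des*, a muscle filament, was at least 30.1-fold higher, and *Acta2*, smooth muscle actin, was above background on all 16 arrays, with a difference of 4.65 ± 0.08.

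Lung arrays also held genes of heart muscle. Of 14 cardiac genes on the array 11 were above background on every lung array, against 2 on every blood array. Of all genes tested 83.3% were so in lung and 62.1% in blood, while the counts of this list and the adipocyte list take in untested genes too. The summed signal of the cardiac list ran from 20800 to 32100 in lung and from 685 to 997 in blood. *Actc1*, cardiac actin, was at least 39.6-fold higher in lung, *Myl7*, the atrial light chain, at least 26.1-fold and *Nppa*, the atrial peptide, at least 30.5-fold. All 4 defining cardiac markers were above background on every lung array and 3 of them on 0 blood arrays. Of 14 adipocyte genes 9 were above background on every lung array and 2 on every blood array, and their summed signal ranged from 17600 to 41100 in lung and from 7250 to 8820 in blood. What part either tissue had in the other lung calls was not tested.

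**Figure D2:**
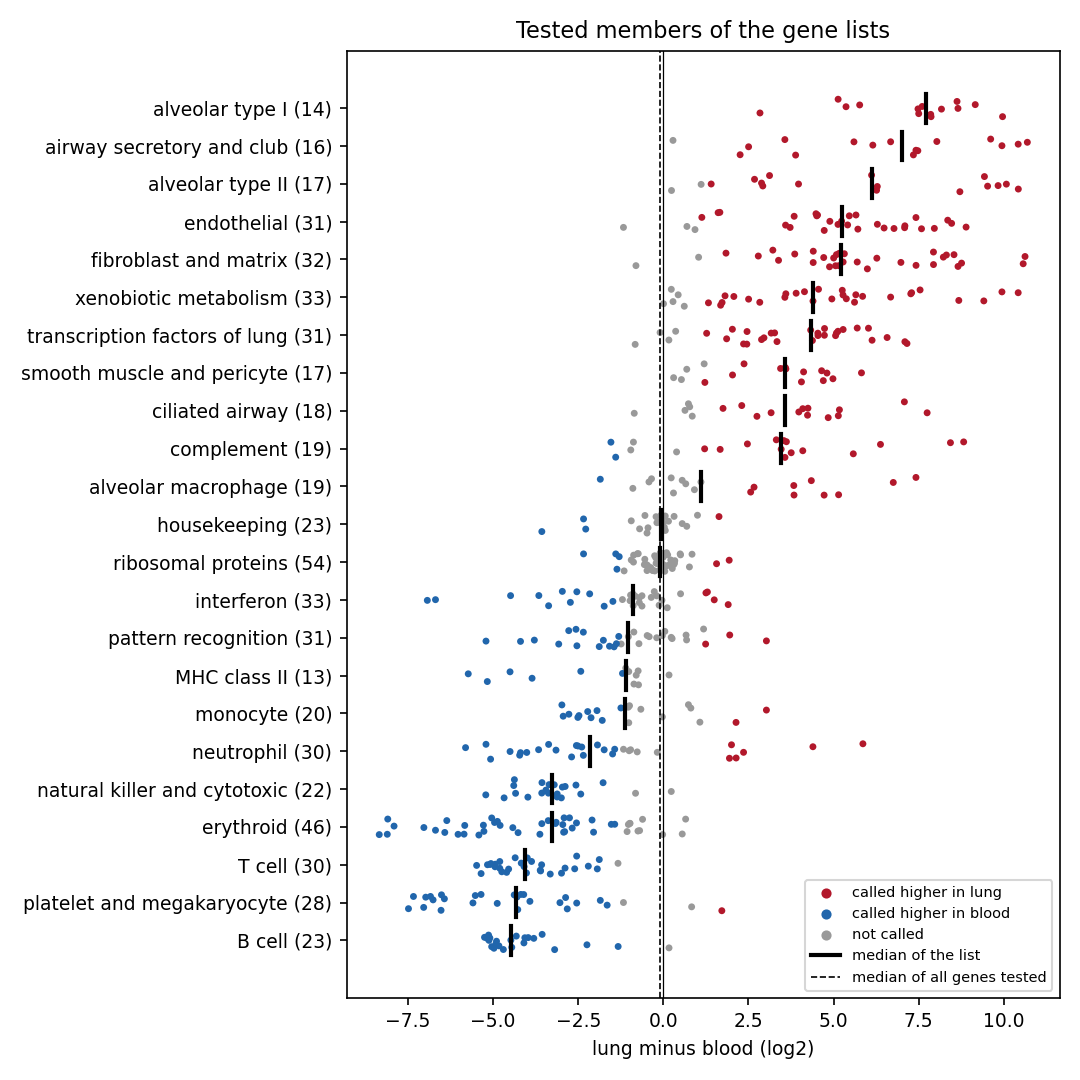
Difference of lung minus blood (log2) for each tested member of 23 gene lists, 1 point per gene, with the number tested in parentheses, the median of each list as a bar and the median of all genes tested (-0.11) as a dashed line. Lists of lung structure lie to the right, down to complement at 3.46, lists of red cells, platelets and lymphocytes lie to the left, down to B cells at -4.48, and interferon, sensor and MHC class II genes spread around the middle.

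The transcription factors that build the lung separated from those of blood cells. Of 35 lung factors on the array 31 were tested, 27 were called higher in lung and 0 in blood (median 4.33), and 19 were lung-only. *Nkx2-1*, the factor that specifies lung epithelium, lay at 11.34 to 11.82 (median 11.53) in lung and 5.29 to 5.81 (median 5.43) in blood, where 2 of 8 arrays read it above background. *Gata6*, which acts with it, was at least 31.5-fold higher in lung, *Foxa1*, a pioneer factor of airway epithelium, at least 13.9-fold, *Foxf1*, of lung mesenchyme, at least 12-fold and *Hoxa5*, which patterns the organ, at least 55.1-fold. *Gata3*, used by T cells as well as epithelia, lay at 7.89 to 8.81 (median 8.31) in lung and 8.87 to 9.53 (median 9.18) in blood and was not called. Of 32 factors of blood cells 29 were tested, 2 were called higher in lung and 25 in blood (median -2.58). The exceptions were *Gata2*, of early blood and endothelial cells, at 2.06 ± 0.09, and *Cebpb*, of macrophages and many other cells, at 1.48 ± 0.07, a call that was lost under another scaling.

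Epithelial transport and metabolism made up a further group. The epithelial sodium channel clears fluid from the air spaces, and its subunits *Scnn1b* and *Scnn1g* were at least 39-fold and 71.9-fold higher in lung, while *Scnn1a* was above background on all 16 arrays, at 11.37 to 12.09 (median 11.88) in lung and 7.30 to 8.0 (median 7.52) in blood. Within the 21 channel and transporter genes, 19 of them tested, 16 were called higher in lung and 1 in blood (median 3.16). That 1 was *Slc6a4*, the serotonin transporter of platelets and of lung endothelium, at 6.24 to 6.70 (median 6.49) in lung and 11.57 to 12.53 (median 12.05) in blood. *Aqp1*, a water channel of capillaries and of red cells, lay at 14.12 to 14.37 (median 14.27) in lung and 10.95 to 11.75 (median 11.46) in blood. Of 37 genes of xenobiotic metabolism 33 were tested, 28 were called higher in lung and 0 in blood (median 4.40). *Fmo1* and *Cyp4b1*, monooxygenases of lung, were at least 233-fold and 82-fold higher in lung, and *Gstm2*, a glutathione transferase, had the largest difference of any gene on all 16 arrays on the lung side, 7.27 ± 0.11, with 13.29 to 14.16 (median 13.68) in lung and 5.89 to 6.82 (median 6.54) in blood.

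Secreted signals and plasma proteins were mostly lung genes. Of 27 complement genes 19 were tested, 14 were called higher in lung and 2 in blood (median 3.46). *Serping1*, which inhibits the first component, was at least 193-fold higher in lung, and *C3*, the hub of the cascade, lay at 13.61 to 14.20 (median 13.80) in lung and 9.68 to 11.17 (median 10.43) in blood. *Cd55*, a shield against complement that blood cells carry, went the other way, with a difference of -1.54 ± 0.06 that was not called under every scaling. Of 45 growth factors and receptors 39 were tested, 29 were called higher in lung and 1 in blood. *Vegfa*, which maintains endothelium, was at least 72-fold higher in lung. The 1 on the blood side was *Tgfb1*, which platelets store and leukocytes make, at 8.84 to 8.99 (median 8.89) in lung and 10.41 to 11.60 (median 11.18) in blood (difference -2.22 ± 0.09), and its call was lost under another scaling.

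Chemokines and their receptors were found on both sides. Of 44 on the array 35 were tested. Called higher in lung were 12 and in blood 16, against 19.1% and 18% of all genes tested. *Cxcl15*, a neutrophil chemokine made by lung epithelium, was at least 374-fold higher in lung, *Ccl21a*, which draws cells that carry *Ccr7*, at least 57.6-fold and *Ccl17*, of dendritic cells, at least 2.77-fold. *Cxcl12*, which retains cells that carry *Cxcr4*, was above background on 7 of 8 lung arrays and 0 blood arrays and was at least 22.2-fold higher in lung. Its signal was 10.605 to 11.22 across the 8 lung arrays, so the missing detection call does not mark a dim reading. Several receptors were called higher in blood, with *Ccr7* at 5.97 to 6.43 (median 6.17) in lung and 10.25 to 10.74 (median 10.50) in blood and *Cxcr5*, the receptor of B cell follicles, at 5.85 to 6.38 (median 6.26) in lung and 10.59 to 11.47 (median 11.15) in blood. *Cxcr4* differed by -1.54 ± 0.09, a call that was lost under another scaling. The ligand *Ccl5*, made by T and natural killer cells and stored in platelets, was also a blood gene, at 9.25 to 10.42 (median 10.04) in lung and 12.85 to 13.87 (median 13.33) in blood.

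Genes that regulate vessel tone and clotting were shared out in a like way. Of 33 on the array 27 were tested. Called higher in lung were 12 and in blood 7, against 19.1% and 18% of all genes tested. *Ptgis*, which makes prostacyclin in endothelium, was at least 63-fold higher in lung, and *Thbd*, the endothelial receptor that turns thrombin to an anticoagulant role, lay at 13.56 to 14.25 (median 13.84) in lung and 7.87 to 9.28 (median 8.4) in blood. *Tbxas1*, which makes thromboxane in platelets and monocytes, lay at 6.89 to 7.35 (median 7.15) in lung and 10.63 to 11.17 (median 10.83) in blood. *F5*, a clotting cofactor, was blood-only and at least 24.1-fold higher in blood.

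On the blood side stood red cell genes. Of 53 erythroid genes on the array 46 were tested, 0 were called higher in lung and 36 in blood, with a median difference of -3.28, and 6 were blood-only. *Slc4a1*, the anion exchanger of the red cell membrane, lay at 7.16 to 8.16 (median 7.66) in lung and 15.74 to 15.81 (median 15.78) in blood, a difference of -8.11 ± 0.09 (limma, adjusted p = 1.38e-22) with blood near the brightest reading of an array. *Kel*, a blood group protein, lay at 4.87 to 5.0 (median 4.94) in lung and 10.98 to 11.49 (median 11.32) in blood and was at least 52.7-fold higher in blood, *Tspo2*, a cholesterol-binding protein of erythroblasts, at least 130-fold and *Ctse*, a protease that red cells carry, at least 140-fold, the largest bound among blood-only genes. *Hemgn*, a nuclear protein of erythroid cells, was at least 21.4-fold higher in blood.

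Genes of iron and heme handling were found on both sides. Of 29 tested 6 were called higher in lung, 12 in blood and 11 in neither (median -0.82). Among all genes tested 19.1% were called higher in lung and 18% in blood. *Alas2*, the erythroid enzyme that begins heme synthesis, lay at 11.21 to 11.93 (median 11.36) in lung and 15.59 to 15.80 (median 15.73) in blood, and *Fech*, which ends it, at 5.97 to 6.42 (median 6.23) in lung and 13.96 to 14.25 (median 14.15) in blood. *Alas1*, the form used by other tissues, was called the other way, at 14.44 to 15.25 (median 14.78) in lung and 10.96 to 11.80 (median 11.04) in blood. *Slc25a37*, which brings iron into mitochondria, differed by -5.85 ± 0.07. Of 23 genes on a list of ubiquitin and proteasome genes of late erythroid cells, 20 were tested, 0 were called higher in lung and 14 in blood (median -3.21). *Ube2l6*, which conjugates ubiquitin and ISG15, lay at 7.33 to 7.71 (median 7.62) in lung and 15.52 to 15.81 (median 15.68) in blood, and *Ube2o*, which clears ribosomes from young red cells, at 10.81 to 11.27 (median 11.06) in lung and 15.61 to 15.76 (median 15.72) in blood. *Ncoa4*, which delivers ferritin to lysosomes, differed by -7.26 ± 0.10, and *Bnip3l*, which removes mitochondria, by -2.90 ± 0.05. The globins could not be compared, since globin RNA was depleted in blood alone and *Hba-a1* was at the brightest reading of both tissues, 15.84 to 15.92 (median 15.92) in lung and 15.92 to 15.92 (median 15.92) in blood. *Hbb-b1* lay at 12.20 to 13.81 (median 13.08) in lung and 13.47 to 13.74 (median 13.69) in blood. A second beta globin gene, at -2.95 ± 0.13, is among the 36 erythroid genes called higher in blood, and that call carries the same limit.

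Promoters of *Alas2* and *Kel* are shown because both genes belonged to the red cell group and carry AGATAA or its complement TTATCT, which GATA factors bind. *Gata1*, the GATA factor of red cells and megakaryocytes, was itself blood-only and at least 4.59-fold higher in blood. *Alas2* lies at chrX:150547167-150547466 on the plus strand, with 1 match on the opposite strand 86 bases before the start, and *Kel* at chr6:41704276-41704575 on the minus strand, with 1 match 56 bases before it.
Alas2: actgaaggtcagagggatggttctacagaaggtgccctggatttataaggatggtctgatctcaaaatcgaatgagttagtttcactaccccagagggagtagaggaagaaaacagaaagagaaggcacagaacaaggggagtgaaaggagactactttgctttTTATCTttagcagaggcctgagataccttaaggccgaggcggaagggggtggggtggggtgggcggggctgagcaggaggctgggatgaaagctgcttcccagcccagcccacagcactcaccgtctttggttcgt
Kel: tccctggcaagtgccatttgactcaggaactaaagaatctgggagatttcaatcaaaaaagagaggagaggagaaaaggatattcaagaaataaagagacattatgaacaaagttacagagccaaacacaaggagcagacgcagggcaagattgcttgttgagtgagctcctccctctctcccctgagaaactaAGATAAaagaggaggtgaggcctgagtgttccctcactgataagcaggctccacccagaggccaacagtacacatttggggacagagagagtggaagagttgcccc

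Platelet genes were higher in blood almost throughout. Of 28 genes, all tested, 1 were called higher in lung and 25 in blood (median -4.34). *Itga2b* and *Gp9*, of the fibrinogen and the von Willebrand factor receptor, lay at 5.78 to 6.34 (median 6.09) and 6.85 to 7.21 (median 7.02) in lung and at 12.53 to 13.49 (median 13.10) and 14.07 to 14.66 (median 14.36) in blood. *Gp1bb*, a partner of *Gp9*, differed by -7.48 ± 0.06 and was above background on 7 of 8 lung arrays. *Ppbp*, the most abundant platelet chemokine, lay at 8.41 to 9.65 (median 8.89) in lung and 15.38 to 15.55 (median 15.48) in blood. *Tubb1*, the tubulin of the platelet rim, was blood-only and at least 102-fold higher in blood, and *Clec1b*, the platelet receptor for podoplanin, at least 38.2-fold. The 1 called in lung was *Cavin2*, a caveola protein of endothelium and platelets, at 1.72 ± 0.07, and that call was lost under another scaling.

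The same held for lymphocyte genes. Of 34 T cell genes on the array 30 were tested and 29 were called higher in blood (median -4.05), and of 26 B cell genes 23 were tested and 22 were called higher in blood (median -4.48). No gene of either list was called higher in lung. *Cd3e*, a chain of the T cell receptor complex, lay at 6.65 to 6.99 (median 6.78) in lung and 11.30 to 12.17 (median 11.77) in blood, and *Cd8b1*, of cytotoxic T cells, at 7.26 to 7.60 (median 7.40) in lung and 12.73 to 13.01 (median 12.90) in blood. *Cd79b*, of the B cell receptor complex, differed by -4.83 ± 0.11. Of 28 natural killer and cytotoxic genes 22 were tested and 20 were called higher in blood (median -3.28), with *Nkg7*, a granule protein, at 6.53 to 7.82 (median 7.22) in lung and 11.73 to 12.49 (median 11.88) in blood. *Prf1*, the pore protein of their granules, lay at 9.80 to 10.45 (median 10.15) in lung and 10.72 to 11.02 (median 10.99) in blood and was not called. The summed signal of the T cell list ran from 6630 to 7600 in lung and from 90700 to 116000 in blood.

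Neutrophil genes were mixed. Of 35 on the array 30 were tested. Called higher in lung were 6 and in blood 19 (median -2.14), against 19.1% and 18% of all genes tested. *Retnlg*, a secreted protein of mouse neutrophils, lay at 6.33 to 7.47 (median 6.81) in lung and 12.25 to 13.02 (median 12.72) in blood. *S100a8*, a calcium-binding alarm protein, differed by -3.15 ± 0.16. Among the 6 on the lung side *Chil1*, a chitinase-like protein, lay at 15.19 to 15.52 (median 15.27) in lung and 9.0 to 10.14 (median 9.39) in blood, *Ltf*, lactoferrin, at 9.93 to 11.49 (median 10.40) in lung and 5.23 to 6.87 (median 6.19) in blood, and *Lcn2*, which withholds iron from bacteria, at 11.74 to 12.23 (median 12.07) in lung and 9.49 to 10.58 (median 9.93) in blood. These 3 are also known as products of airway or glandular epithelium.

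Monocyte and macrophage genes lay nearer the middle. Of 25 monocyte genes 20 were tested, 2 were called higher in lung and 10 in blood (median -1.14). *F13a1*, a transglutaminase of monocytes and platelets, differed by -2.94 ± 0.08, and *Csf1r*, the receptor on which monocytes and macrophages depend, lay at 9.07 to 9.54 (median 9.20) in lung and 9.53 to 10.15 (median 9.99) in blood, where the tissues overlapped. Of 24 alveolar macrophage genes 19 were tested, 9 were called higher in lung, 1 in blood and 9 in neither (median 1.11). The lung calls count *Car4*, named above for lung capillaries. Above background on all 8 air aorta arrays were 12 of the 19, *Ctsk* and *Car4* among them. *Chil3*, a chitinase-like protein of mouse alveolar macrophages, lay at 12.72 to 13.24 (median 13.05) in lung and 9.98 to 10.85 (median 10.31) in blood, and *Ctsk*, a protease, was at least 13-fold higher in lung. *Marco*, a scavenger receptor of these cells, read dimly in both tissues (6.37 to 7.40 (median 6.90) in lung, 6.40 to 7.03 (median 6.58) in blood) and was not called. *Lyz2*, lysozyme of the whole lineage, lay at 15.47 to 15.72 (median 15.61) in lung and 14.46 to 15.08 (median 14.83) in blood. Pan leukocyte genes, which any of these cells carry, were called higher in lung for 0 of 24 tested and in blood for 22 (median -3.03), with *Ptprc*, the CD45 antigen, at 6.21 to 6.74 (median 6.46) in lung and 9.78 to 10.49 (median 10.06) in blood.

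**Figure D3:**
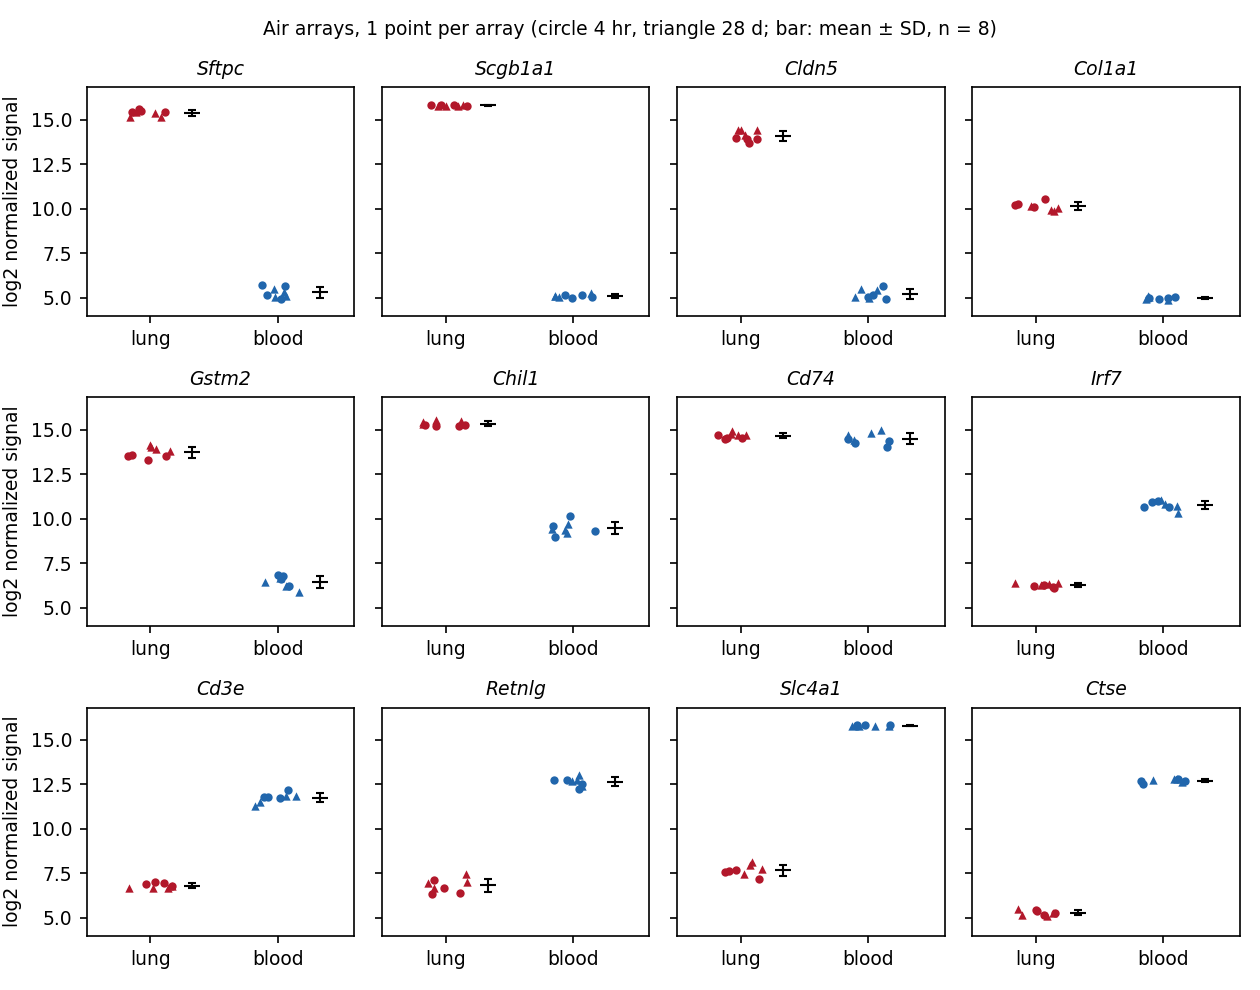
Log2 normalized signal of 12 genes on each of the 8 lung and 8 blood air arrays (circles 4 hr, triangles 28 d), with mean and SD beside the points. *Sftpc*, *Scgb1a1*, *Cldn5* and *Col1a1* lie at background in blood, *Gstm2* and *Chil1* are higher in lung but seen in both, *Cd74* overlaps, *Irf7*, *Cd3e*, *Retnlg* and *Slc4a1* are higher in blood, and *Ctse* lies at background in lung.

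The class II genes of antigen presentation spread widely. All 13 were above background on all 16 arrays, 0 were called higher in lung and 6 in blood (median -1.10). Of the chains that present peptide, *H2-Aa* lay at 12.72 to 13.56 (median 13.28) in lung and 13.61 to 14.23 (median 13.96) in blood, *H2-Ab1* at -1.10 ± 0.07, *H2-Eb1* at -0.80 ± 0.08 and the invariant chain *Cd74* at 14.48 to 14.93 (median 14.69) in lung and 14.05 to 14.96 (median 14.43) in blood, and none of these 4 was called, while *H2-Eb2*, a further beta chain, differed by -3.86 ± 0.08 and was called. Genes that load and edit the peptide were spread as well. *H2-Ob* and *H2-Oa*, which restrain peptide loading, lay at 7.07 to 7.92 (median 7.51) and 6.28 to 6.77 (median 6.48) in lung and at 12.34 to 13.22 (median 12.62) and 10.77 to 11.32 (median 10.98) in blood, and *H2-DMb2*, a chain of the loading factor, at 6.20 to 6.74 (median 6.43) in lung and 11.69 to 12.53 (median 12.12) in blood. The other chains of that factor, *H2-DMb1* and *H2-DMa*, differed by -0.73 ± 0.07, which was not called, and -1.20 ± 0.08 (limma, adjusted p = 0.0374). The call of *H2-DMa* was lost under another scaling, and without any 1 of lung 28 d replicates 3 and 4, lung 4 hr replicates 1 and 4, blood 4 hr replicates 2, 3 and 4 and blood 28 d replicates 2 and 3, with an adjusted p up to 0.0891. *Ciita*, which switches class II genes on, differed by -2.42 ± 0.09, a call that was lost under another scaling.

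Interferon genes were of interest because type I interferon signaling, with *Irf7* as its hub, was the pathway the study followed across tissues. In air mice, 38 were on the array and 33 were tested. Of these 4 were called higher in lung, 11 in blood and 18 in neither (median -0.88). Among all genes tested 19.1% were called higher in lung and 18% in blood. *Irf7*, the factor that amplifies type I interferon, lay at 6.09 to 6.41 (median 6.29) in lung and 10.34 to 11.02 (median 10.77) in blood, a difference of -4.49 ± 0.08 (limma, adjusted p = 2.98e-18) with no overlap. *Rsad2*, an antiviral enzyme, and *Isg20*, an RNA exonuclease that the red cell list also held, differed most, at 8.17 to 9.20 (median 8.87) and 7.44 to 8.71 (median 8.16) in lung and 15.61 to 15.84 (median 15.75) and 14.68 to 14.99 (median 14.81) in blood. *Isg15*, the ubiquitin-like modifier, lay at 7.79 to 8.47 (median 8.03) in lung and 11.33 to 12.03 (median 11.67) in blood. *Usp18*, the protease that removes it, was not called, at 9.06 to 9.47 (median 9.25) in lung and 9.21 to 9.89 (median 9.42) in blood, where the tissues overlapped.

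The 4 on the lung side included *Ifitm2* and *Ifitm3*, membrane proteins that stop viruses from fusing, and *Ifit3*, which binds viral RNA complexes. *Ifit3* differed by 1.5 ± 0.06 and *Ifitm2* by 1.91 ± 0.07, the second a call that was lost under another scaling, and *Ifitm3* differed by 1.25 ± 0.07 but by -0.29 when arrays were scaled to their 75th percentile. The regulators *Stat2*, *Irf1*, *Irf2*, *Irf3* and *Irf9* were above background on all 16 arrays and differed by -0.89 to -0.12, and none was called.

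Sensors of microbes were found on both sides. Of 36 on the array 31 were tested. Called higher in lung were 3 and in blood 14 (median -1.03), against 19.1% and 18% of all genes tested. *Tlr7*, which senses RNA in endosomes, lay at 6.84 to 7.59 (median 7.12) in lung and 9.57 to 9.97 (median 9.65) in blood, with a difference of -2.57 ± 0.08, and its call was lost under another scaling. *Tlr1* and *Tlr6*, which pair with *Tlr2*, differed by -3.79 ± 0.09 and -3.07 ± 0.09, with *Tlr1* above background on 6 of 8 lung arrays, while *Tlr2* itself overlapped at 9.30 to 9.91 (median 9.77) in lung and 9.50 to 10.20 (median 9.89) in blood. *Dhx58*, a regulator of the RNA sensors, differed by -1.58 ± 0.07, but by 0.11 when scaled to housekeeping genes. *Cd14*, a co-receptor for endotoxin, was the largest on the lung side, at 9.74 to 10.24 (median 10.12) in lung and 6.35 to 7.63 (median 7.07) in blood, followed by *Clec4n*, a lectin for fungal sugars that 5 of 8 blood arrays read above background, at 1.95 ± 0.15, and *Il18*, a cytokine that epithelium stores, at 1.24 ± 0.10 (limma, adjusted p = 0.0302). The call of *Il18* was lost without any 1 of lung 28 d replicate 2, lung 4 hr replicates 2 and 3, blood 4 hr replicate 1 and blood 28 d replicates 3 and 4, with an adjusted p up to 0.0706.

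**Figure D4:**
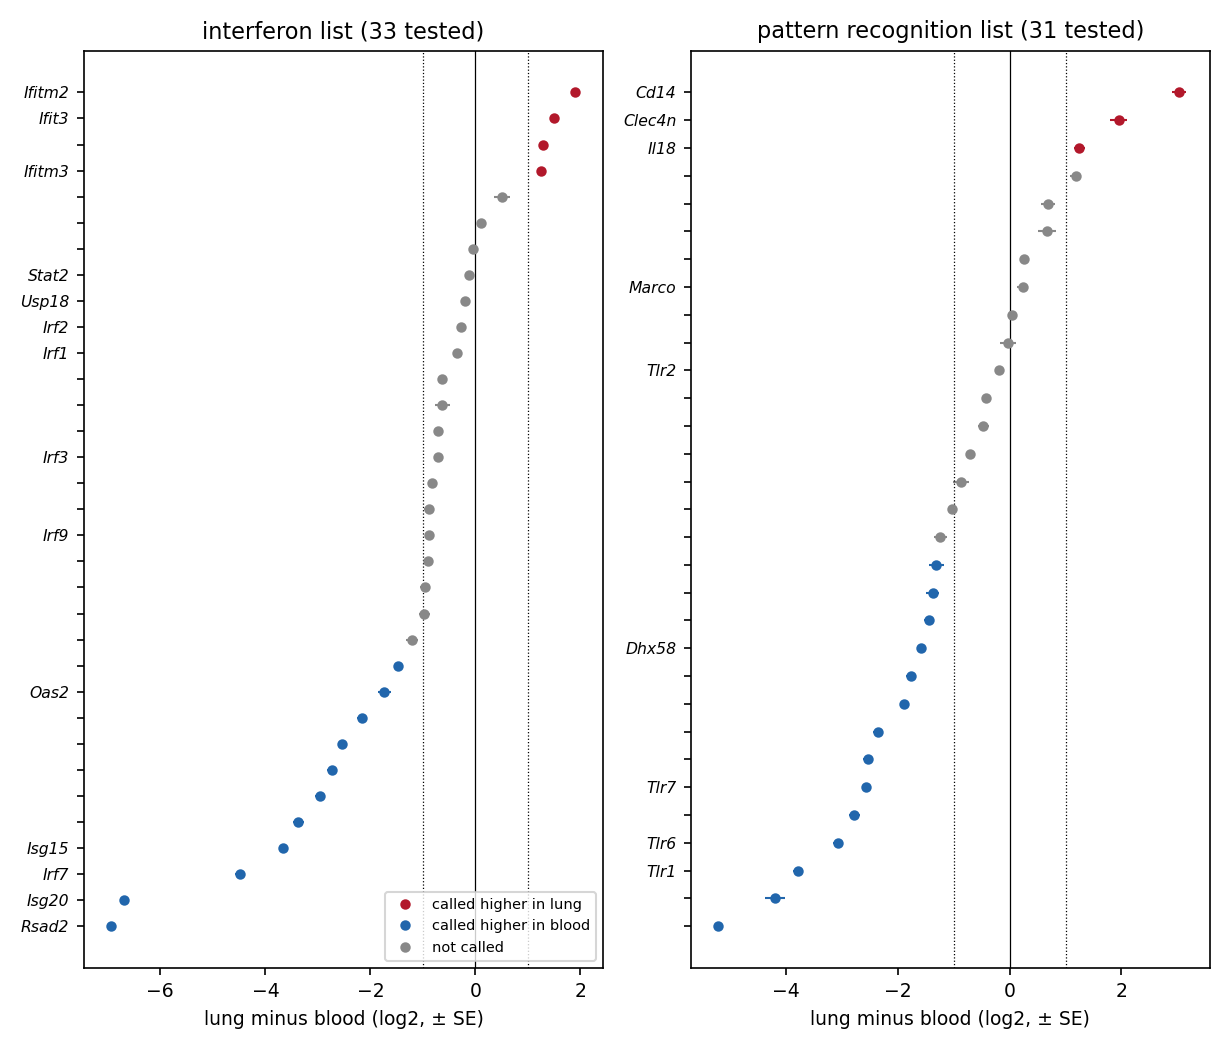
Difference of lung minus blood (log2, with SE) for the 33 tested interferon genes and the 31 tested pattern recognition genes, in order of the difference, with names beside the genes the text describes; dotted lines mark 2-fold. Points left of zero are higher in blood, down to *Rsad2* at -6.93, and 7 points right of zero were called higher in lung.

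Genes that every cell uses lay for the most part at a like level in both tissues. Of 54 tested ribosomal protein genes 44 lay within 2-fold on all 16 arrays, 2 were called higher in lung and 4 in blood (median -0.10), and of 23 tested housekeeping genes 16 lay within 2-fold (median -0.07). *Actb*, beta actin, lay at 14.29 to 14.68 (median 14.43) in lung and 14.52 to 14.86 (median 14.62) in blood, *Hprt*, of purine salvage, at 10.80 to 11.20 (median 10.85) in lung and 10.76 to 10.94 (median 10.89) in blood, and *Cyc1*, of the respiratory chain, at 10.43 to 10.92 (median 10.71) in lung and 10.18 to 10.93 (median 10.72) in blood, and in all 3 the tissues overlapped. *Gapdh*, of glycolysis, lay at 12.11 to 12.42 (median 12.26) in lung and 12.64 to 13.12 (median 13.01) in blood, without overlap but within 2-fold. Against these, *Ctnnb1*, which links cadherins to actin, was called higher in lung at 1.64 ± 0.06, and *Rplp0* and *Cfl1*, a ribosome stalk protein and an actin-cutting protein, higher in blood at -2.34 ± 0.06 and -2.28 ± 0.09, all 3 being calls that were lost under another scaling. Since quantile normalization assumes like distributions in both tissues, these levels are relative to it.

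Promoters of the classes were searched for short motifs, which detection had not used. CCGGAAGT, a site for ETS factors, was found on either strand in 11.8% of promoters of the shared genes of like level (376 of 3183 with a promoter in the table), 3% of lung-only genes, 3.03% of blood-only genes and 4% of all 27025 promoters. The median number of CG dinucleotides in the 300 bases was 22, 14, 7 and 7 in the same order. AGATAA was found in 7.7% of lung-only promoters (77 of 1000), 17.2% of blood-only promoters (17 of 99), 5.12% of those of like level and 11.4% of all, and the TATA box letters TATAAA in 10.5%, 18.2%, 6.19% and 14.2%. Among genes above background on all 16 arrays, AGATAA was in 6.94% of promoters of those called higher in lung (35 of 504) and 7.36% of those called higher in blood (79 of 1074), the class of *Alas2*, so that both shares lay below that of all promoters. CTCAAG was about as frequent in lung-only promoters (16.3%) as in all (16.2%), with 12.1% in blood-only promoters and 14.3% in those of like level. GAGGAAGT, for PU.1, was in 2.3% of lung-only promoters, 3.03% of blood-only promoters and 3.28% of all, and CCACACCC, for KLF factors, in 3.3%, 1.01% and 3.57%. A match is a run of letters and not a bound site, and these shares are descriptions with no test.

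The promoter of *Sec24c*, a coat protein of vesicles that leave the endoplasmic reticulum, is shown as one of a shared gene with the ETS letters. It lies at chr14:20674071-20674370 on the plus strand and holds CCGGAAGT 6 bases after the start and its complement ACTTCCGG 33 bases before it, and the gene lay at 9.92 to 10.37 (median 10.07) in lung and 9.81 to 10.31 (median 10.04) in blood.
Sec24c: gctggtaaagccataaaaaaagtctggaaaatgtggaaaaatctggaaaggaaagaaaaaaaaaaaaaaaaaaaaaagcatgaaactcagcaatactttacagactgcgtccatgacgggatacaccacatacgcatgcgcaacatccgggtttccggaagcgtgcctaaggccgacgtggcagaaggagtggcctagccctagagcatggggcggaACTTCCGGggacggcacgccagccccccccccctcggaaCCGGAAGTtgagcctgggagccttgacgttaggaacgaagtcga

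Aorta, the third tissue of the series, shares vessel wall and connective tissue with lung, and the same genes were read on its 8 air arrays. Of the 1408 lung-only genes 704 (50%) were above background on all 8 air aorta arrays and 407 on none, while 7 of the 121 blood-only genes (5.79%) were above background on all 8 and 102 on none. Of genes on all 16 lung and blood arrays 88.3% were above background on all 8 aorta arrays. *Cldn5*, *Col1a1* and *Mgp* were in the first group, and *Sftpc*, *Sftpb* and *Cldn18* gave 0 of 8. Type I and airway genes were not absent from aorta as a group. *Pdpn* and *Cyp2f2* were above background on all 8 aorta arrays, *Aqp5* on 7 and *Scgb1a1* on 6. Among the 14 tested type I genes 5 were so on all 8 and 4 on none. Among the 16 tested secretory and club genes the counts were 6 and 4. The blood-only genes seen on all 8 aorta arrays included *Ackr1*, the chemokine receptor of red cells and of venules, at least 27.9-fold higher in blood than in lung. By mouse number the aorta came from the animals that gave the blood.

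**Figure D5:**
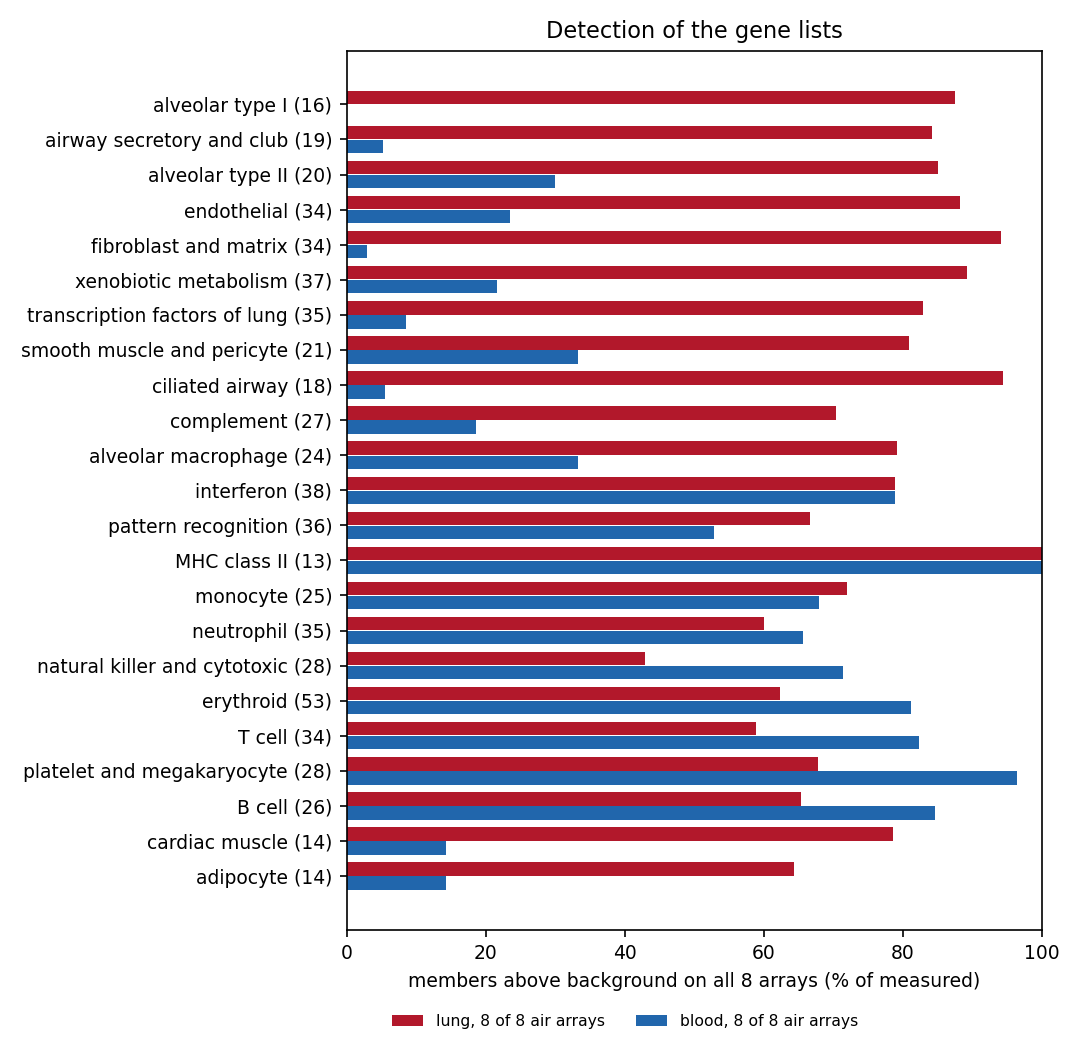
Percent of the measured members of 23 gene lists that were above background on all 8 air arrays, for lung (upper bar) and blood (lower bar), with the number on the array in parentheses. Of 16 type I genes 14 reached all 8 lung arrays and 0 all 8 blood arrays, and of 34 fibroblast genes 32 and 1 did, while of 34 T cell genes 20 reached all 8 lung arrays and 28 all 8 blood arrays.

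The tissue difference was also read at each time. Of the 4118 called genes, which were chosen on the mean of both times, 4015 were past 2-fold at 4 hr and at 28 d. The difference at 28 d departed from that at 4 hr for 2496 genes (22.5%; limma interaction contrast, adjusted p under 0.05), of which 260 departed by more than 2-fold. Within lung 82 genes differed over 2-fold between the times, and within blood 42. The largest departures, picked after their values were seen, lay in lung and included genes of the circadian clock. *Dbp*, a clock output factor, averaged 8.42 at 28 d and 12.79 at 4 hr in lung, against 10.11 and 10.13 in blood, and *Arntl*, which drives the clock, 9.67 and 6.77 in lung, against 9.24 and 9.07 in blood. The change in the tissue difference was -4.36 ± 0.25 for *Dbp* and 2.73 ± 0.21 for *Arntl* (limma, adjusted p = 3.08e-09 and 3.08e-07). Time and beadchip cannot be told apart here.

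The GMA-SS arrays of lung and blood, 8 of each from other mice, gave a repeat of the comparison on arrays that took no part in the calls. They lay on the same beadchips as the air arrays, so tissue and beadchip cannot be told apart there either. Of the air calls, 1893 (89.2%) on the lung side and 1673 (83.9%) on the blood side were called there in the same direction and 0 in the opposite one. Of the lung-only genes 1144 were lung-only there as well, and of the blood-only genes 65. *Ccl6*, a myeloid chemokine, *Oas2*, an interferon-induced enzyme, and *Dhx58* were called higher in blood in air mice (-2.22 ± 0.09, -1.74 ± 0.12 and -1.58 ± 0.07), all 3 being calls that were lost under another scaling, and differed by 0.30, 0.89 and 0.33 on the GMA-SS arrays.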

How the data were processed

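Labeled cRNA was bound to Illumina MouseRef-8 v2.0 beadchips, 1 array per sample. The authors exported from BeadStudio the average signal of each entry, an intensity on a linear scale that is not normalized, and deposited with it a detection p-value, which ranks the entry among the negative controls of its array. The authors also deposited normalized log2 values, which the paper's methods tie to lumi and limma, and which served as an alternative.

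Lung and blood signals were joined by probe entry. For 13869 of 18138 entries the detection p-values took steps of 1 in 798 on every array. These entries gave the background of each array, which limma 3.58.1 under R 4.3.3 removed with its normexp model. The detection p-values of the other entries did not keep to these steps on every array. Detection calls and the classes built on them used all entries alike. After adding 16, log2 was taken and the 16 air arrays were quantile-normalized together, which gives the tissues 1 distribution and makes differences relative to it. Of 18138 entries, 16590 were named through Entrez numbers, 883 through RefSeq accessions and 665 by the symbol in the file. The brightest entry of a symbol was used, and a gene was tested if 3 or more arrays of lung or of blood had it at a detection p under 0.05. Left out of the lung-only and blood-only classes were 23 entries that were bright but below detection.

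A linear model with 1 mean per tissue and time was fitted, and the mean of lung minus that of blood was tested with treat against 2-fold, with Benjamini-Hochberg adjustment. Precision is limited by the number of arrays. Nothing but the mouse numbers says how samples were kept apart. The p-values measure the spread of arrays within a tissue and time, which lie on 1 beadchip. They take in no spread between beadchips. On simulated data, of 50 genes changed by log2 values of 0.5, 1, 2 and 3, 0%, 0%, 80% and 96% were called, with 0 false calls. Changes of 0.5 and 1 do not exceed the 2-fold size tested against, so calls were not due there. The changed genes were drawn from the brighter entries, and the simulated tissues were otherwise alike. The simulation therefore cannot give the rate of missed or false calls in these data. There 16290 simulated entries passed the detection limit, against 11112 genes tested in the data. Alternatives were other scalings, no background correction, other detection limits, a 4-fold threshold, single times, array weights, blocks, every entry, each array left out, the GMA-SS arrays and the authors' values. Genes were named by size of difference or bound, by list, and, for interferon and sensor genes, because the paper names them. The members and lists were chosen with earlier results of these data known. Symbols were not all brought up to date, and some genes of the lists are not reported here.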

Additional observations from a re-analysis of the deposited data

Results flagged for a closer look

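In 11 of 271 sets of 8 arrays checked, 1 array stood apart from the other 7 by Dixon's criterion, where chance alone gives about 1 set in 20. In lung these were *Lyz1* at 15.67 on 4 hr replicate 1, *Cldn18* at 13.64 and *Dynlrb2* at 11.86 on 4 hr replicate 4, *Isg15* at 8.47 on 28 d replicate 1, *Stat2* at 7.90 on 28 d replicate 4 and *Hprt* at 11.20 on 28 d replicate 2. In blood they were *Nkg7* at 12.49 and *H2-Eb2* at 9.32 on 4 hr replicate 1, *Prf1* at 10.72 on 4 hr replicate 2, *Scnn1a* at 8.0 on 4 hr replicate 4 and *Hbb-b1* at 13.47 on 28 d replicate 3. All of the values are log2 normalized signals, and no array appears more than 2 times. By another measure lung 28 d replicate 4 did stand apart. Its background had an SD of 101.5, against 23.3 to 42.3 on the other lung arrays, and background removal uses that SD. With this array left out, 171 of the 172 named genes gave the same result.

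The difference between the tissues changed over 2-fold between the times in 6 of the 172 genes named (limma interaction contrast, adjusted p under 0.05). The difference at 28 d minus that at 4 hr was -4.36 for *Dbp*, 2.73 for *Arntl*, -1.30 for *Hbb-b1*, 1.22 for *Cxcl15*, -1.11 for *Alas1* and -1.06 for *Cd55*. Each time lies on its own beadchip in each tissue, so that time and beadchip cannot be told apart.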

How the results depend on the processing

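Tissue and beadchip cannot be told apart, and only 8 arrays per tissue and the lower signal over background of blood set what could be seen. Of 140 named genes that were called, 118 kept their call in every alternative run, 22 lost it in at least 1 and 4 of these changed sign. *Ifitm3* was -0.29 under 75th percentile scaling, *Dhx58* 0.11 under scaling to housekeeping and ribosomal protein genes, and on the GMA-SS arrays *Dhx58* was 0.33, *Ccl6* 0.30 and *Oas2* 0.89; the cause was not tested.

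Genes higher in lung numbered 2123, but 5329 under scaling to housekeeping and ribosomal protein genes, 6846 with the authors' normalized values and 1177 against 4-fold. Genes higher in blood numbered 1995, but 719 under housekeeping scaling, 180 with the authors' values, 853 against 4-fold and 719 by the same call under 4 scalings, an alternative chosen after seeing the data. Shared genes of like level numbered 3959, but 2613 under housekeeping scaling and 935 with the authors' values. The paper does not say whether the authors' values were normalized within each tissue or together. They were therefore not taken to set a level between tissues, and single genes were not compared with them. Of 1712 genes called higher in blood that they hold, 1281 had a positive difference there. Blood-only genes numbered 121, but 211 at a detection p under 0.01, 216 with 4 hr arrays alone and 184 with 28 d arrays alone. The count of genes whose tissue difference changed between the times was 2496, but 1528 under housekeeping scaling. Leaving out each array in turn gave 2103 to 2120 genes higher in lung, 1961 to 1992 higher in blood, 1416 to 1463 lung-only, 121 to 130 blood-only, 3959 to 4008 of like level and 2016 to 2576 with a changed difference.

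With the replicate block the counts were 2127 and 1996, and it changed no call of a named gene. The tissues carry different mouse numbers, and the replicate number is not a mouse number. It is the order of an array within its group and follows its place on the beadchip. Lung and blood arrays of the same replicate number, at the same or at different times, had deviations that correlated at -0.12 to 0.14. For 11 of 16 arrays the best match in the other tissue had the same replicate number. Since such pairs also join different times, this cannot show that tissues shared an animal. With the beadchip as a random block 1931 genes were called higher in lung and 1697 in blood.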

Other observations

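Some genes with large differences were not named above, whether or not a list described there held them. On the lung side, *Inmt*, a methyltransferase of small amines, *Prelp*, a matrix proteoglycan, *Gpx3*, a secreted glutathione peroxidase, and *Emp2*, a membrane protein of epithelium, were lung-only and at least 583-fold, 361-fold, 296-fold and 258-fold higher in lung. All 4 were above background on all 8 air aorta arrays. Among genes above background on all 16 arrays, *Crip2*, a LIM domain protein, lay at 15.10 to 15.22 (median 15.17) in lung and 8.80 to 9.58 (median 9.08) in blood. *Anxa3*, a membrane-binding annexin, lay at 14.70 to 15.01 (median 14.83) in lung and 8.53 to 9.37 (median 9.10) in blood, and *Mt1*, a metallothionein that binds zinc, at 12.85 to 14.07 (median 13.21) in lung and 6.94 to 8.01 (median 7.57) in blood. In none of these 3 genes did the arrays of the tissues overlap.

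On the blood side was *Nusap1*, a spindle protein of dividing cells. It lay at 5.97 to 6.35 (median 6.13) in lung and 12.47 to 13.03 (median 12.67) in blood. It counted as blood-only, but its mean lung signal before normalization was 295, against 286 for *Itga2b*, which was above background on all 8 lung arrays. Its absence from lung is therefore not shown. *Abcb4*, a phospholipid transporter, was at least 40.1-fold higher in blood. *Mfsd2b*, which exports sphingosine phosphate from red cells and platelets, was at least 27.8-fold higher. Among genes above background on all 16 arrays, *Treml1*, a receptor of platelet granules, lay at 7.09 to 7.59 (median 7.36) in lung and 14.01 to 14.30 (median 14.08) in blood, and *Tspan33*, a tetraspanin of red cell precursors and activated B cells, at 5.59 to 6.13 (median 5.84) in lung and 12.67 to 13.09 (median 12.90) in blood. Among all genes tested 19.1% were called higher in lung and 18% in blood. Of 18 tested genes of autophagy and mitochondrial clearance 1 was called higher in lung and 7 in blood (median -0.75). Of 23 tested antioxidant genes 8 were called higher in lung and 6 in blood (median 0.22). In that list *Gclm*, which limits glutathione synthesis, lay at 9.59 to 10.10 (median 9.86) in lung and 14.02 to 14.45 (median 14.31) in blood, *Prdx2*, a peroxidase of red cells, at 10.92 to 11.37 (median 11.09) in lung and 14.31 to 14.48 (median 14.41) in blood, and *Sod3*, the extracellular superoxide dismutase, was lung-only and at least 17.8-fold higher in lung.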
